A study of Mus musculus with 19 samples.

Results

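Cd68 encodes a lysosomal membrane glycoprotein of macrophages, and its transcript was used to rank the 19 aortic RNA-seq libraries of the series. The level was taken in CPM, in which the counts of every library are scaled to the same total over genes. The 6 libraries with the highest level formed a Cd68-high set and the 6 with the lowest a Cd68-low set, 12 of 19 libraries in all. The remaining 7 middle libraries stayed out of both sets. Each library came from the abdominal aorta of a male Apoe-/- mouse on the C57BL/6J background, a hyperlipidemic strain that lacks apolipoprotein E, infused with angiotensin II (AngII) by a subcutaneous osmotic pump implanted at 8 to 10 weeks of age to induce abdominal aortic aneurysm. Mice of the D-3 IR group received 1 Gy of X-rays to the whole body 3 days before pump implantation and mice of the D+1 IR group 1 day after it, whereas control mice were anaesthetized in the same way and not irradiated. All mice of the 12 libraries carried the Apoe deletion and the AngII pump, and no library of a mouse without them was used here. The model produces aneurysms in part of the infused mice, and a bulk aorta mixes cells of the wall, adherent fat and nerve, and blood.

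Macrophages in the aneurysmal wall derive from blood monocytes, which enter through chemokine signals read by Ccr2, and from resident cells of the adventitia. They depend on the growth factor receptor Csf1r, take up immune complexes and debris through Fc and scavenger receptors, and release cytokines, chemokines and proteases that cut elastin and collagen. Several transcripts that macrophages carry, among them Ptprc, Lcp1 and Laptm5, are shared with neutrophils and lymphocytes. In bulk tissue, fewer cells of a type and less RNA per cell cannot be told apart.

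Cd68 itself is given only as a description, since it chose the sets. Over the raw gene totals, D+1 IR 20 led with 234 CPM of Cd68, followed by control 9 with 113, D-3 IR 10 with 54.2, D+1 IR 18 with 53.6, D-3 IR 14 with 52.3 and D+1 IR 1 with 36.8. The Cd68-low set held control 8 at 16.6 CPM, D+1 IR 19 at 12.4, D-3 IR 11 at 11.2, control 4 at 10.8, D+1 IR 2 at 10.7 and control 6 at 10.04. The first library outside the high set, D+1 IR 3, had 34.6 CPM, close to the 36.8 of the last one inside, and the first above the low set, D-3 IR 16, had 19.3 against 16.6. The Cd68-high set thus held 3 D+1 IR, 2 D-3 IR and 1 control library, and the Cd68-low set 2 D+1 IR, 1 D-3 IR and 3 control libraries. By irradiation group, the 5 control libraries ran from 10.04 to 113 CPM of Cd68 (median 16.6), the 7 of D-3 IR from 11.2 to 54.2 (median 26.3) and the 7 of D+1 IR from 10.7 to 234 (median 34.6), with overlapping ranges.

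Depth overlapped between the sets. The Cd68-high libraries held 26729225 to 97083681 counts in genes and the Cd68-low libraries 28758369 to 63767498, so that the Cd68-low libraries still had 312 to 640 Cd68 counts each. Mitochondrial transcripts took 4.49% to 15.2% of the counts in the Cd68-high set and 4.86% to 22.9% in the Cd68-low set. D+1 IR 20 and control 9 stood far above all others in Cd68, and D-3 IR 10 held 9681 CPM of summed skeletal muscle transcripts against at most 72.2 CPM in the other Cd68-high libraries, so results are also given without these libraries. D+1 IR 1, 2 and 3 carry another number in the names of their data than the remaining 16 libraries, and what that number stands for was not given.

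**Figure D1:**
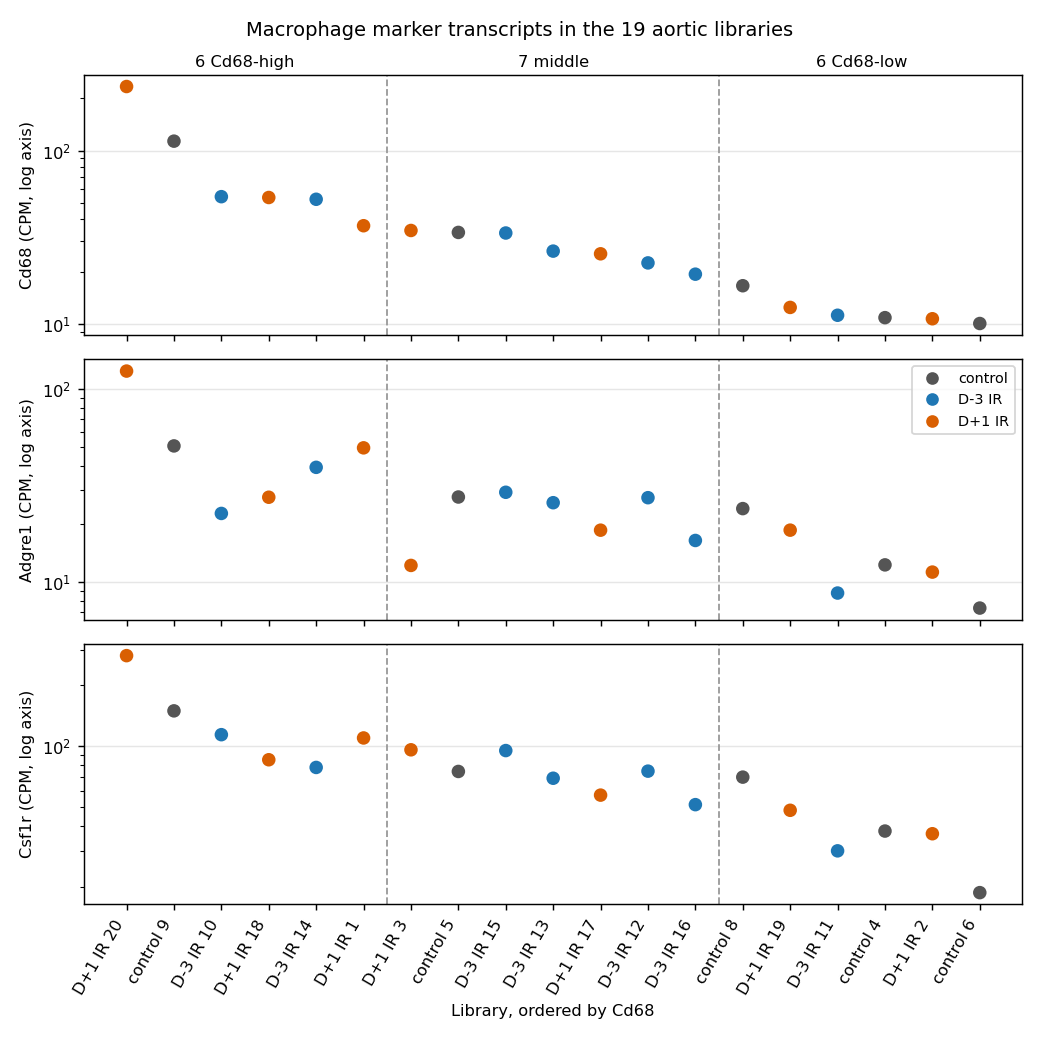
CPM of Cd68, Adgre1 and Csf1r on log axes in each of the 19 libraries, ordered by Cd68 and coloured by irradiation group, with dashed lines at the borders of the sets. Cd68 falls from 234 to 10.04 CPM by construction, Csf1r falls with it, and Adgre1 falls with more scatter, with D-3 IR 10 and D+1 IR 3 low for their rank.

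Of 2 macrophage markers that the ranking did not use, Csf1r separated the sets and Adgre1 nearly did. Adgre1, which encodes the F4/80 antigen (GRCm38, chr17:57358691-57483527, plus strand), ranged from 20.5 to 106 CPM, median 44.7, after TMM normalization, the scale of all levels from here on, in the Cd68-high libraries and from 7.87 to 21.1 with a median of 13.6 in the Cd68-low libraries. The ranges overlapped only between D-3 IR 10 at 20.5 CPM and control 8 at 21.1 CPM. The difference between the sets was a log2 fold of 1.79 (SE 0.39) with an adjusted p of 0.031 by edgeR's quasi-likelihood test. Csf1r, the receptor of the macrophage growth factor Csf1, ranged from 78.7 to 239 CPM, median 109, against 20.0 to 61.3 with a median of 43.0, with no overlap (log2 fold 1.61, SE 0.32, adjusted p = 0.021). Without D+1 IR 20 and control 9 the log2 folds were 1.29 for Adgre1 and 1.18 for Csf1r, and neither passed the threshold. With 1 library left out, the log2 fold of Adgre1 ran from 1.40 to 1.95 and did not pass without any of D+1 IR 20, control 9, D+1 IR 19, D-3 IR 11, control 4, D+1 IR 2 and control 6. That of Csf1r ran from 1.32 to 1.75 and did not pass without any of D+1 IR 19, D-3 IR 11 and control 4.

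Over all 19 libraries, log2 CPM of Adgre1 went with that of Cd68 at Pearson's r = 0.84 and Spearman's rho = 0.83 (permutation tests with 100000 resamples, p = 2e-05 each, adjusted p = 4e-05 over 8 values). Csf1r reached r = 0.91 and rho = 0.92 (p = 1e-05 each, the smallest the permutations can give, adjusted p = 4e-05). Left without D+1 IR 20 and control 9, r was 0.70 for Adgre1 and 0.85 for Csf1r. Within the 7 middle libraries, Csf1r kept an r of 0.82 (exact permutation test, p = 0.0298, adjusted p = 0.0476) and a rho of 0.79 (exact p = 0.048, adjusted p = 0.064), and r was 0.80 without D-3 IR 16 and control 5. Adgre1 there had an r of 0.22 (exact permutation test, p = 0.646, adjusted p = 0.646) and a rho of 0.57 (exact p = 0.2, adjusted p = 0.229), and its r turned to -0.15 without D-3 IR 16 and control 5. Csf1r thus went with Cd68 over the whole range and, by r but not by adjusted rho, within the middle, where the call on r was lost without D+1 IR 3 (r = 0.80). Adgre1 went with Cd68 over the whole range, and its relation within the middle could not be told from 0.

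Across the transcriptome, genes that went with Cd68 were nearly all higher. Of 16312 genes tested besides Cd68, 440 were higher in the Cd68-high libraries at an adjusted p under 0.05, or 2.7% of the genes tested, and 5 were lower, or 0.0307%. The sets were chosen on a measured gene, so these p-values rank how closely a gene went with Cd68 in these 12 libraries and test no treatment. The 440 higher genes, 417 of them protein coding, differed by a log2 fold of 0.64 to 7.48 (median 2.40), and 426 of them by more than 2-fold and 105 by more than 8-fold. The median over all genes tested was -0.07, and 43.1% of them had a log2 fold above 0. In 317 of the 440 every Cd68-high library lay above every Cd68-low library; over all genes tested this held for 377, or 2.31%, and the opposite order for 57, or 0.349%.

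Single libraries decided how many genes passed. Leaving out 1 library gave 128 higher genes without control 4, 169 without D+1 IR 19, 196 without D-3 IR 11, 199 without control 8, 220 without control 6, 253 without D+1 IR 20 and 281 without control 9. With any of the other 5 left out, 344 to 585 genes were higher. Without both D+1 IR 20 and control 9, 147 genes were higher, all of them among the 440. With the irradiation group as a covariate, 294 were higher, 275 of them among the 440. In each of these fits every one of the 440 genes that was tested kept a log2 fold above 0, which their choice in the same libraries largely fixed. Lower genes numbered 59 without D+1 IR 1, 33 without D+1 IR 2, 12 without D-3 IR 10 and at most 6 without any of the other 9.

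None of the 15 genes of smallest p overlapped between the sets. They were chosen by p in these same 12 libraries, so the separation follows largely from that choice. Tnfsf8, the CD30 ligand of activated leukocytes, ranged from 1.43 to 2.78 CPM, median 2.11, in the Cd68-high libraries and from 0.0876 to 0.272 with a median of 0.147 in the Cd68-low libraries, with a log2 fold of 3.70 (SE 0.36) and an adjusted p of 0.0029. It was scarce even where it was high. Lpxn, which encodes the adhesion adaptor leupaxin, ranged from 4.85 to 14.1 CPM, median 8.25, against 0.957 to 1.57 with a median of 1.25 (log2 fold 2.81, SE 0.32, adjusted p = 0.0053). Ms4a6b, a tetraspan membrane protein of leukocytes, ranged from 14.4 to 42.9 CPM, median 25.3, against 3.04 to 6.79 with a median of 4.83 (log2 fold 2.47, SE 0.30, adjusted p = 0.006), and its neighbour Ms4a6c had a log2 fold of 2.66. The latter 2 genes lie on chromosome 19 and encode related proteins.

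Lyz2, the lysozyme of macrophages and granulocytes, was the most abundant of the 15, at 534 to 1590.2 CPM, median 845, against 130.4 to 259 with a median of 179 (log2 fold 2.33, SE 0.30, adjusted p = 0.0074). Each Cd68-high library thus had at least 534 CPM of Lyz2 and no Cd68-low library more than 259. Lcp1, the actin-bundling protein L-plastin of blood cells, stood at 79.5 to 300.2 CPM, median 161, against 19.9 to 28.1 with a median of 26.7. Nckap1l, a subunit of the actin-regulating WAVE complex in blood cells, stood at 20.6 to 75.8 CPM, median 38.7, against 6.41 to 9.59 with a median of 8.80. Both actin regulators had Cd68-low levels in a narrow band, with log2 folds of 2.73 (SE 0.35) and 2.42 (SE 0.32). Ch25h, which makes 25-hydroxycholesterol, had the widest ratio after Tnfsf8 and Ccl8, with 2.61 to 11.8 CPM, median 3.73, against 0.268 to 0.711 with a median of 0.389 (log2 fold 3.50, SE 0.44, adjusted p = 0.007).

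Ccl8, a chemokine of monocytes and tissue macrophages, was at 22 to 155 CPM, median 31.4, against 2.95 to 5.69 with a median of 4.53 (log2 fold 3.60, SE 0.49, adjusted p = 0.0086), and Siglec1, the sialic acid receptor of resident and interferon-exposed macrophages, at 11.4 to 43.6 CPM, median 18.6, against 2.62 to 6.70 with a median of 3.72 (log2 fold 2.51, SE 0.35, adjusted p = 0.0087). Plac8 of monocytes had a log2 fold of 2.97 (SE 0.39). The remaining 5 of the 15 were Serpinb1a, an inhibitor of granulocyte proteases, at 1.92 (SE 0.23), Tnfaip2, a target of TNF signaling, at 1.91 (SE 0.26), the sialic acid lyase Npl at 2.19 (SE 0.30), the exchange factor Cyth4 at 2.27 (SE 0.32) and Ms4a6c at 2.66 (SE 0.34). The 15 adjusted p-values ran from 0.0029 to 0.0087. With the libraries ordered by Csf1r in place of Cd68, 204 genes were higher, 162 of them among the 440, and ordered by Adgre1 no gene passed by edgeR, with 966 higher and 396 lower at an unadjusted p under 0.05.

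**Figure D2:**
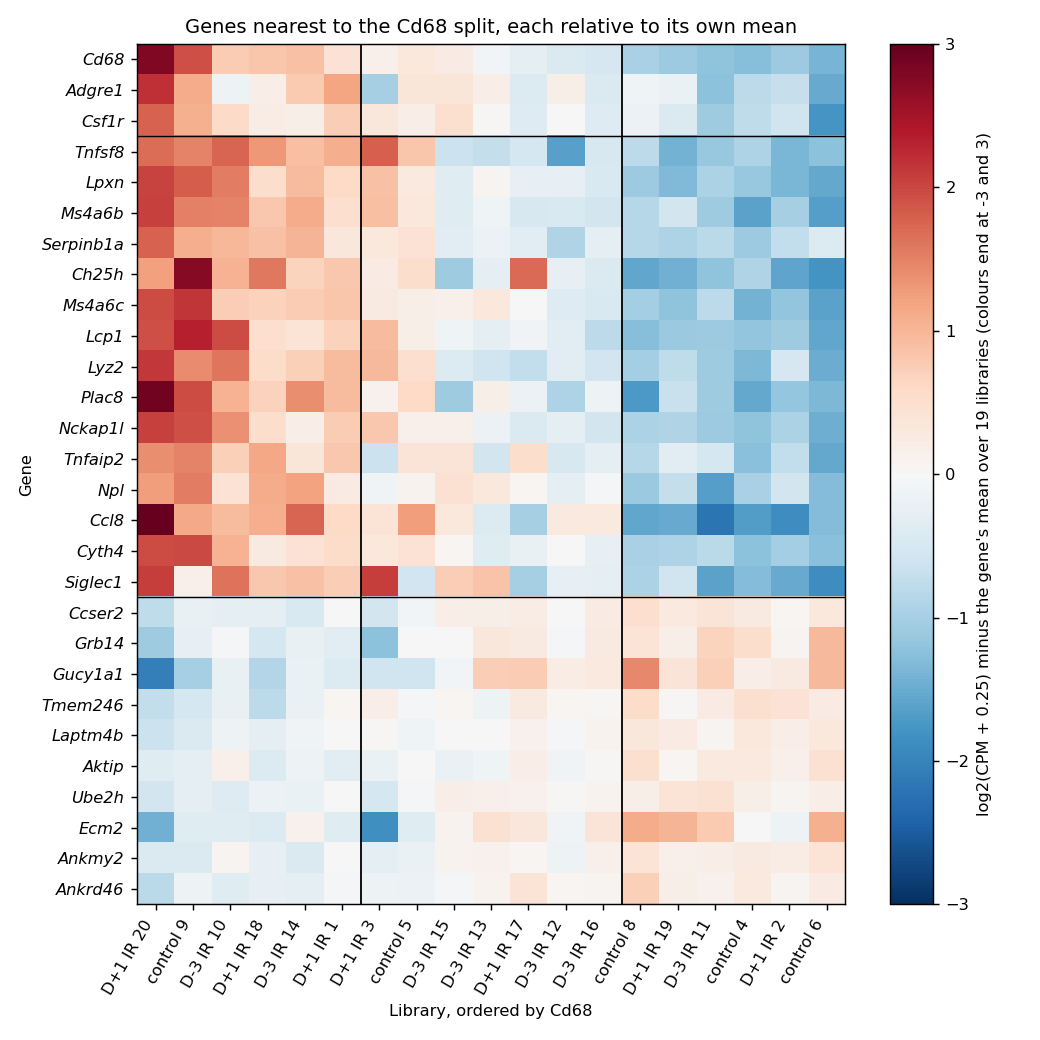
Log2(CPM + 0.25) of each gene minus its mean over the 19 libraries, in colour, with libraries ordered by Cd68 from left to right and black lines at the borders of the sets; rows are the 3 macrophage markers, the 15 higher genes and the 10 lower genes of smallest p. The higher genes mostly reach their highest values in D+1 IR 20 and control 9 and their lowest in the 6 Cd68-low libraries, and the lower genes show the opposite order in paler colours.

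The promoters of Cd68 and of the first 3 of these genes are shown to let their sequence be set beside their shared pattern. They are windows of 300 bases, 250 before and 50 after the RefSeq start on GRCm38.p6, and 4 of 5 genes looked up had one, Adgre1 being the one without. The letters GAGGAA, the core of the box bound by the macrophage and granulocyte factor PU.1 (encoded by Spi1), and their reverse complement TTCCTC are in capitals, with each promoter read 5′ to 3′ on the gene's own strand. The windows are chr11:69666121-69666420 (minus strand) for Cd68, chr4:63861235-63861534 (minus) for Tnfsf8, chr19:12795943-12796242 (plus) for Lpxn and chr19:11518309-11518608 (plus) for Ms4a6b.
Cd68: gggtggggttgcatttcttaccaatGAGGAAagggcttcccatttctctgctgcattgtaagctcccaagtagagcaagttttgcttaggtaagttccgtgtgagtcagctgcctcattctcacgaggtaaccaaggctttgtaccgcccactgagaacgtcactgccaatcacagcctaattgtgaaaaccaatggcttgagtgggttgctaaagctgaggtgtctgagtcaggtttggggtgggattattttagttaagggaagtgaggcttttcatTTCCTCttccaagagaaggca
Tnfsf8: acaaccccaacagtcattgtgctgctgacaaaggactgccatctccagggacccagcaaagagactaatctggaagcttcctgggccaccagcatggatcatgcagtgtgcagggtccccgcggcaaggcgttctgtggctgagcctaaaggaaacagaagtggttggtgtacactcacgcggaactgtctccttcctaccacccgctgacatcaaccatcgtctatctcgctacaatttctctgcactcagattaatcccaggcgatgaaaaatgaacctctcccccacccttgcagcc
Lpxn: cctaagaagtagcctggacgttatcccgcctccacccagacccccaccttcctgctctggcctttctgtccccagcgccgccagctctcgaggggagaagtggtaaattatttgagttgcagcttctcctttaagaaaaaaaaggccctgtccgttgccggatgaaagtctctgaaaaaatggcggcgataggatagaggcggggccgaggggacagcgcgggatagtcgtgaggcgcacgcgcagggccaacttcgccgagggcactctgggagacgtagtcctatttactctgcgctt
Ms4a6b: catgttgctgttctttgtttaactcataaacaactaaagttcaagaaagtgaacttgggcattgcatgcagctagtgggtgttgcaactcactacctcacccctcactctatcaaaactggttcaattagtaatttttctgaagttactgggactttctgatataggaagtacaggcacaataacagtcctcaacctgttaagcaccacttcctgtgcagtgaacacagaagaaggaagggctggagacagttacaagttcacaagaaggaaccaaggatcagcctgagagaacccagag

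The Cd68 window held the letters once as written and once as the reverse complement, and the other 3 windows did not hold them. Of all 32851 promoter windows of the table, 28.3% held them on either strand, and of the 15136 windows of genes tested 27.1%. Among the 414 windows that matched by symbol to 334 of the 440 higher genes, 182 held them, or 44.0%. This share is a description of short letter matches, which are not binding sites. Spi1 itself ranged from 26.6 to 121 CPM, median 40.6, in the Cd68-high libraries and from 7.16 to 12.1 with a median of 8.34 in the Cd68-low libraries (log2 fold 2.77, SE 0.43, adjusted p = 0.0097).

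The genes whose pattern was most like Cd68 over all 19 libraries, by Spearman's rho of CPM, were Pirb (0.97), Ms4a6b (0.97), Lrrc25 (0.97), Ms4a6c (0.96), Fcgr1 (0.95), Nckap1l (0.95), Myo1f (0.95), C1qb (0.95), Npl (0.94) and Fcer1g (0.94). The points share the libraries and their normalization, and 12 of the 19 are the libraries of the sets. Pirb, an inhibitory receptor of myeloid and B cells, was at 18.3 to 71.2 CPM, median 19.0, against 2.77 to 6.72 with a median of 4.97. Fcgr1, the high-affinity receptor for IgG, was at 12.9 to 126 CPM, median 19.1, against 2.21 to 5.26 with a median of 3.82, and Myo1f, a myosin of leukocytes, at 11.0 to 60.3 CPM, median 22, against 4.06 to 6.23 with a median of 5.40. The 19 libraries that chose these 10 genes include both sets and the middle, so their levels support nothing beyond that choice.

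The middle libraries took no part in the contrast and gave a second look at the same genes. Of the 440 higher genes, 359 had a rho with Cd68 above 0 over the 7 middle libraries, or 81.6%, against 45.7% of all genes tested. Their median rho was 0.32 against 0. Cd68 spanned only 19.9 to 35.8 CPM here, or 19.3 to 34.6 CPM over the raw gene totals. No gene passed in a fit of the slope on Cd68 (edgeR, 14251 genes tested, 835 at an unadjusted p under 0.05), nor in any alternative of it that was run. Of the 395 higher genes tested in that fit, 84 had a positive slope at an unadjusted p under 0.05, against 681 of all 14251. The gene lists described below did not all go with Cd68 in the middle libraries. The median rho was 0.50 for mononuclear phagocyte genes (22 of 25 above 0) and 0.48 for Fc receptor and signaling genes (16 of 18). It was -0.09 for monocyte genes (8 of 18), -0.04 for inflammatory mediators (9 of 18) and -0.14 for neutrophil genes (3 of 11).

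**Figure D3:**
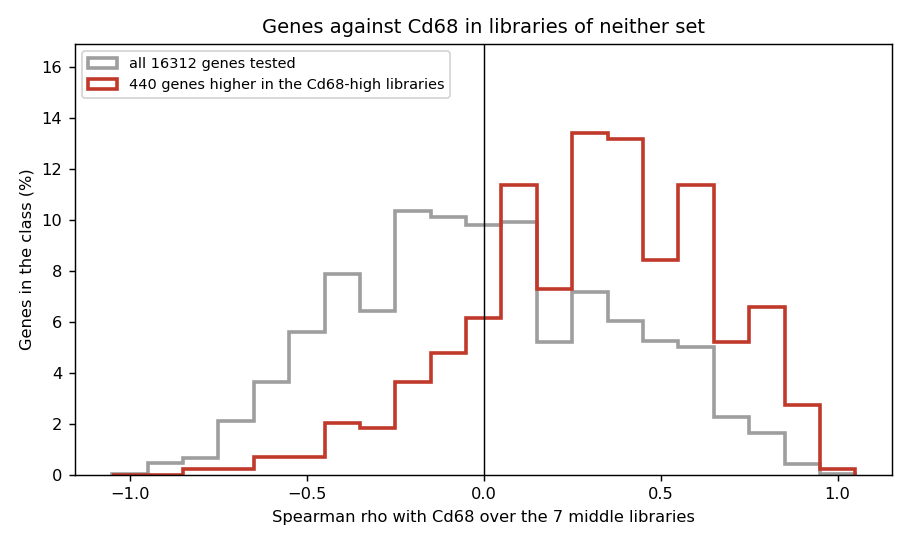
Spearman's rho of each gene's CPM with Cd68 over the 7 middle libraries (horizontal axis) and the percentage of genes in each bin (vertical axis), for all 16312 genes tested in grey and the 440 genes higher in the Cd68-high libraries in red. The red line is shifted to the right, with 81.6% of its genes above 0 against 45.7% of all genes.

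Genes listed for mononuclear phagocytes, some of them shared with other leukocytes, mostly followed Cd68. Of 25 such genes measured, 17 were higher and none lower, with a median log2 fold of 2.33 against -0.07 over all genes. Ctss, the lysosomal protease cathepsin S, ranged from 105 to 629.9 CPM, median 167, against 22.8 to 38.0 with a median of 25.7 (log2 fold 3.15, SE 0.44, adjusted p = 0.0087). Cd84, an adhesion receptor of leukocytes, ranged from 9.40 to 36.9 CPM, median 15.5, against 2.13 to 4.88 with a median of 3.01, and Laptm5, a lysosomal membrane protein of blood cells, from 88.2 to 417 CPM, median 199.5, against 23.3 to 51.1 with a median of 39.4. Neither overlapped. Cd14 (log2 fold 3.23), Cx3cr1 (1.97) and Mertk, which serves the clearance of dying cells (-0.25), did not pass. Summed over the list, the transcripts came to 1434 to 4657 CPM in the Cd68-high libraries and 456 to 665 CPM in the Cd68-low libraries. The count was 11 without D+1 IR 20 and control 9, 8 without control 4, 10 without D+1 IR 19 and 11 without D-3 IR 11.

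Fc receptors and the kinases and adaptors behind them were higher almost without exception. Of 18 genes, 17 were higher, with a median log2 fold of 2.75, and 16 were separated without overlap. Vav1, an exchange factor for Rac, ranged from 10.1 to 59.1 CPM, median 27.0, against 2.54 to 5.37 with a median of 3.20 (log2 fold 3.11, SE 0.47, adjusted p = 0.0097), and Pik3ap1, an adaptor of PI 3-kinase, from 8.01 to 46.8 CPM, median 24.0, against 2.95 to 4.08 with a median of 3.97 (log2 fold 2.78, SE 0.39, adjusted p = 0.0087). Tyrobp, the adaptor DAP12, ranged from 31.1 to 165 CPM, median 46.8, against 8.98 to 12.5 with a median of 11.6, and the kinase Btk from 3.62 to 15.9 CPM, median 8.83, against 1.08 to 1.97 with a median of 1.32. Lyn, with a log2 fold of 1.68 and an adjusted p of 0.06, was the exception. The count was 11 without D+1 IR 20 and control 9 and 10 without control 4.

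All 6 measured subunits of the phagocyte oxidase, the enzyme complex that makes superoxide, were higher. Ncf1 ranged from 19.0 to 111 CPM, median 33.4, against 5.01 to 8.71 with a median of 6.63, Rac2 from 13.4 to 127 CPM, median 43.0, against 5.14 to 8.59 with a median of 7.6, and Ncf4 from 5.47 to 27.2 CPM, median 13.2, against 1.39 to 2.98 with a median of 2.24. Cybb, its membrane catalytic subunit, ranged from 15.0 to 83.4 CPM, median 31.3, against 6.31 to 14.1 with a median of 8.51 (log2 fold 2.02, SE 0.40, adjusted p = 0.021). The log2 folds of the 6 ran from 1.72 for Cyba, which is also expressed outside blood cells, to 2.84 for Rac2. Of the 6, 3 passed without D+1 IR 20 and control 9, and without any single library 4 to 6.

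Lysosomal genes lay mostly above 0 by small folds. Of 30 enzymes and membrane proteins of the lysosome, 27 had a log2 fold above 0, against 43.1% of all genes tested. Of these 30, 1 was called higher, against 2.7% of all genes tested. The 30 genes had a median of 0.40 (0.26 without D+1 IR 20 and 0.46 without D-3 IR 10). Their sum did not overlap, at 8636 to 16637 CPM in the Cd68-high libraries and 7169 to 8539 CPM in the Cd68-low libraries. Lgmn, the protease legumain, had a log2 fold of 1.40 (SE 0.35) with an adjusted p of 0.054, and Grn, the precursor of the granulins, of 1.01 (SE 0.30) with an adjusted p of 0.12, with no overlap between the sets for either. Lamp1, a structural protein of the lysosomal membrane, was at 0.09. Of 17 subunits of the vacuolar proton pump, only Tcirg1, whose product is enriched in leukocytes and osteoclasts, was higher (log2 fold 1.53, SE 0.37, adjusted p = 0.048), and the median was -0.04 (-0.08 without D+1 IR 20 and 0.11 without control 8). Lysosomal genes called numbered 2 without D-3 IR 14 and without D+1 IR 1, and 0 without any of D+1 IR 19, D-3 IR 11, control 4 and control 6. The Tcirg1 call held only without D+1 IR 20, D+1 IR 18, D-3 IR 14 or D+1 IR 1, and not with the irradiation group as a covariate. Without D+1 IR 20 and control 9 no gene of either list passed.

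**Figure D4:**
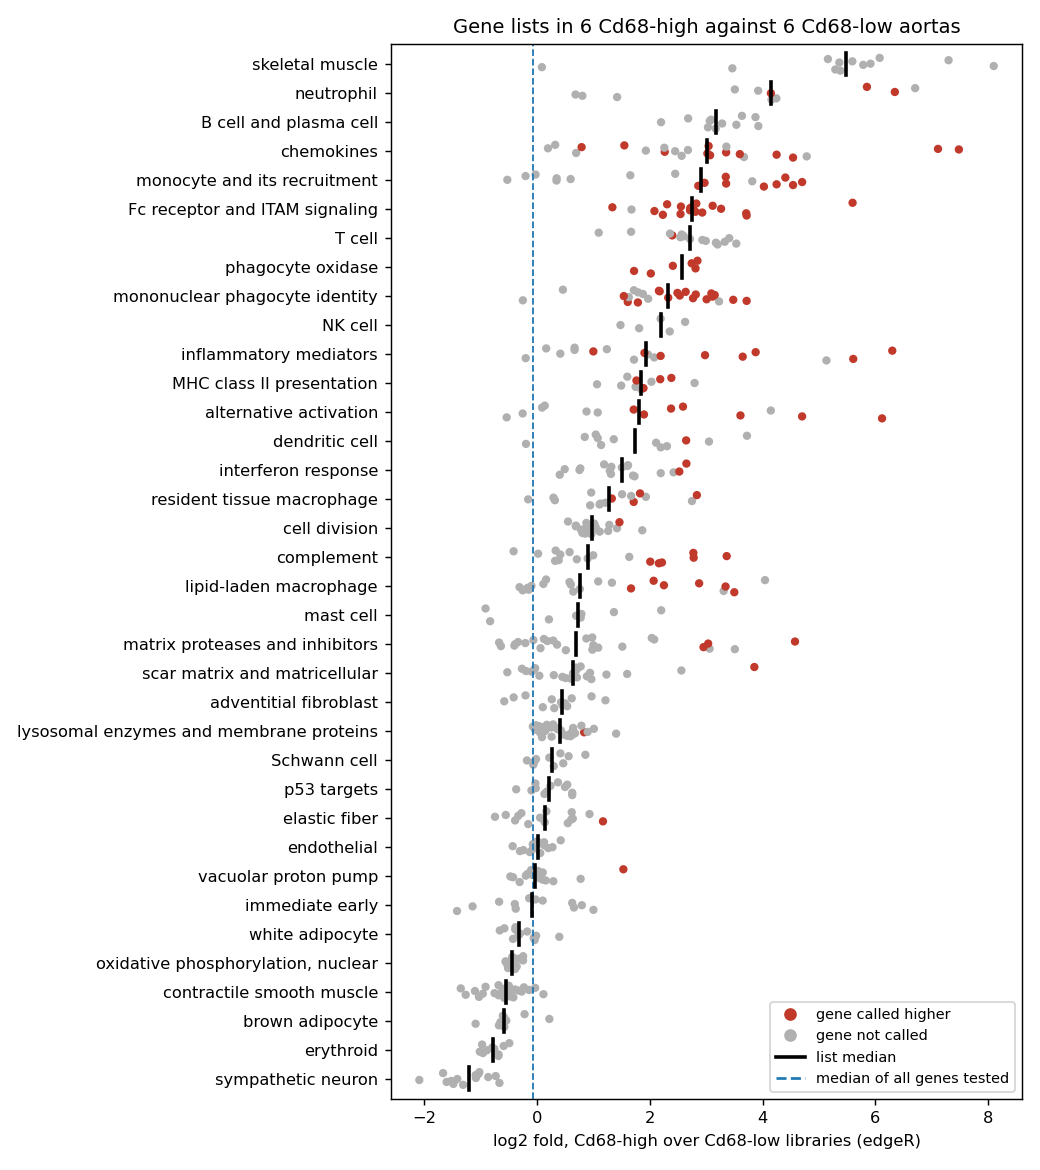
Log2 fold of Cd68-high over Cd68-low libraries for the genes of each list with at least 5 genes tested, 1 point a gene, red where the gene was called higher and grey where it was not, with a black bar at the list's median and a dashed line at the median of all genes (-0.07). Lists of phagocyte, chemokine and Fc receptor genes lie right of 2 with many red points, and the smooth muscle, fat and sympathetic neuron lists lie left of 0 with none, whereas the skeletal muscle and B cell lists lie far right with no red point.

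Genes linked to lipid-laden macrophages of atheroma followed Cd68 in part. Of 21 genes, 6 were higher, with a median log2 fold of 0.76. Msr1, the class A scavenger receptor, ranged from 9.67 to 90.7 CPM, median 16.5, against 1.35 to 4.23 with a median of 2.94 (log2 fold 3.34, SE 0.56, adjusted p = 0.011), and Trem2, a lipid-sensing receptor, from 13.3 to 137 CPM, median 20.8, against 1.99 to 5.59 with a median of 2.62 (log2 fold 3.50, SE 0.65, adjusted p = 0.015). Lgals3, encoding galectin 3, and Olr1, the receptor of oxidized LDL, had log2 folds of 2.25 (SE 0.40) and 2.87 (SE 0.61), the cholesterol exporter Abcg1 of 1.67 (SE 0.36) and the integrin Itgax of 2.07 (SE 0.49). Plin2 (log2 fold -0.10), Lpl (-0.15) and Cd36 (-0.31), which adipocytes also express, did not pass. The list's summed transcripts overlapped, at 2476 to 7683 CPM in the Cd68-high libraries and 976 to 9507 CPM in the Cd68-low libraries. The count was 3 without D+1 IR 20 and control 9, 3 without control 8, and 2 without D+1 IR 19 and without control 4.

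Of 16 markers of resident macrophages, 15 had a log2 fold above 0 and 4 were higher, with a median log2 fold of 1.27. Mrc1, the mannose receptor, ranged from 47.6 to 143 CPM, median 110.0, against 14.4 to 50.4 with a median of 33.5 (log2 fold 1.71, SE 0.34, adjusted p = 0.021), and Pf4, a chemokine of platelets and resident macrophages, from 27.1 to 222 CPM, median 52.3, against 4.73 to 21.7 with a median of 11.6 (log2 fold 2.83, SE 0.60, adjusted p = 0.028). Clec10a and Stab1, both endocytic receptors, had log2 folds of 1.83 (SE 0.42) and 1.33 (SE 0.32). Lyve1, the hyaluronan receptor of adventitial macrophages and lymphatic endothelium, overlapped at 26.7 to 88.7 CPM, median 59.1, against 14.2 to 65.7 with a median of 22.1 (log2 fold 0.94, SE 0.42, adjusted p = 0.29), and Cd163 (1.21) and Timd4 (2.75) did not pass either. No gene of the list was higher without D+1 IR 20, nor without control 4, and 1 was without any of control 9, control 8, D+1 IR 19, D-3 IR 11 and control 6, and 2 without D+1 IR 18.

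Monocyte genes and chemokines were higher with large folds and wide spread. Of 18 monocyte and recruitment genes, 9 were higher (median log2 fold 2.92), and of 23 chemokines 12 (median 3.02). Ccr2, the receptor through which monocytes leave the marrow and enter tissue, ranged from 16.3 to 107 CPM, median 32.7, against 4.16 to 9.08 with a median of 5.89 (log2 fold 2.86, SE 0.46, adjusted p = 0.0097). Ccl2, a ligand of Ccr2, ranged from 9.2 to 311 CPM, median 23.2, against 0.898 to 5.03 with a median of 2.29 (log2 fold 4.54, SE 0.98, adjusted p = 0.029). Control 9 alone held 311 CPM of Ccl2, and D+1 IR 20, the next highest, 29.4. With these 2 libraries left out its log2 fold was 2.51 (2.73 without control 9 alone) and did not pass, as was the case for Il6 at 4.01, Il10 at 3.04, Chil3 at 2.42 (2.71 without control 9 alone), Timp1 at 2.28 and Mmp13 at 2.75, all described further on.

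Ccl7 and Ccl12, also ligands of Ccr2, were higher too. Cxcl2 and Cxcl5, which attract neutrophils, had the widest log2 folds of the list, 7.48 (SE 1.73) and 7.11 (SE 1.63). Cxcl2 stood at 226 CPM in control 9, the library that also led the neutrophil sum, and at 0.518 to 3.37 in the other 5 Cd68-high libraries, and its log2 fold was 3.31 without control 9. Cxcl5 stood at 117 CPM in control 9 and at 1.94 to 17.3 in the other 5. Ccl7 ranged from 8.50 to 164 CPM, median 18.2, against 1.16 to 4.03 with a median of 2.20 (log2 fold 4.25, SE 0.79, adjusted p = 0.015) and Ccl12 from 3.09 to 23.3 CPM, median 4.43, against 0.363 to 1.23 with a median of 0.719 (log2 fold 3.35, SE 0.56, adjusted p = 0.011). Ccl9, a myeloid chemokine, had a log2 fold of 3.02 (SE 0.61) with overlap. Cxcl9 (0.19) and Cxcl10 (2.26), which interferon-gamma induces, and Ccl11 (0.69), which attracts eosinophils, did not pass, nor did the patrolling-monocyte gene Nr4a1 (-0.03). Of the monocyte genes, 6 passed without D+1 IR 20 and control 9, 4 without control 4, and 5 without any of control 8, D+1 IR 19, D-3 IR 11 and control 6. Of the chemokines, 3 passed without D+1 IR 20 and control 9, 2 without control 4, 3 without control 6, 4 without any of control 8, D+1 IR 19 and D-3 IR 11, and 7 without D+1 IR 20. With the irradiation group as a covariate, 7 monocyte genes and 6 chemokines passed.

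Genes of alternative activation and of inflammation were higher in part. Of 14 alternative activation genes tested, 7 were higher (median log2 fold 1.80) and of 18 inflammatory mediators 8 (median 1.94). Il10ra, the receptor of interleukin 10, ranged from 7.41 to 38.5 CPM, median 22.2, against 2.00 to 5.47 with a median of 4.50 (log2 fold 2.38, SE 0.42, adjusted p = 0.013). Socs3, a feedback inhibitor of cytokine signaling, ranged from 16.9 to 176 CPM, median 47.6, against 6.43 to 15.0 with a median of 10.6, and Il4ra, the receptor of interleukins 4 and 13, from 46.3 to 286 CPM, median 89.0, against 22.1 to 45.0 with a median of 32.7. Il10 was scarce at 0.244 to 2.10 CPM, median 0.506, against 0 to 0.131 with a median of 0.0523 (log2 fold 3.61, SE 0.81, adjusted p = 0.035). Among classical alternative activation genes, Chil3 was at 1.45 to 168 CPM, median 10.5, against 0.363 to 2.00 with a median of 1.41 (log2 fold 4.70, SE 1.09, adjusted p = 0.039), whereas Retnla overlapped at 4.77 to 45.3 CPM, median 18.3, against 9.65 to 58.1 with a median of 33.4 (log2 fold -0.54, SE 0.56, adjusted p = 0.66).

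Of the receptors that sense microbial products, Tlr13 ranged from 4.87 to 64.3 CPM, median 9.51, against 1.09 to 1.65 with a median of 1.37 (log2 fold 3.88, SE 0.64, adjusted p = 0.01) and Tlr1 from 3.48 to 16.9 CPM, median 6.48, against 0.460 to 1.76 with a median of 0.997 (log2 fold 2.98, SE 0.51, adjusted p = 0.011), and Tlr7 had a log2 fold of 1.90 (SE 0.35). All 3 were separated. Il6 was at 0.618 to 51.5 CPM, median 2.63, against 0 to 0.537 with a median of 0.159 (log2 fold 5.61, SE 1.26, adjusted p = 0.035), with 51.5 CPM in control 9. Tnf did not pass at 0.540 to 2.65 CPM, median 1.34, against 0 to 1.41 with a median of 0.288 (log2 fold 1.72, SE 0.79, adjusted p = 0.31), and Nos2 had a log2 fold of -0.20. Il4 had a log2 fold of -0.50 (SE 0.59) and an adjusted p of 0.69. With the irradiation group as a covariate, 5 alternative activation genes and 4 inflammatory mediators passed. When D+1 IR 20 and control 9 were left out, none of the alternative activation genes and 3 inflammatory mediators passed. With 1 library left out, the former numbered 1 without D+1 IR 20 and without control 4, 2 without any of control 8, D+1 IR 19, D-3 IR 11 and control 6, and 4 without control 9 and without D+1 IR 2. The inflammatory mediators numbered 2 without control 4, 3 without any of D+1 IR 20, control 8, D+1 IR 19, D-3 IR 11 and control 6, 4 without D+1 IR 2 and 5 without control 9.

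All 11 genes of MHC class II presentation had a log2 fold above 0 (median 1.85, or 1.19 without D-3 IR 10) and 8 were separated, but 4 passed, namely the costimulatory ligands Cd86 (log2 fold 2.19, SE 0.39, adjusted p = 0.013) and Cd80 (log2 fold 2.38, SE 0.53, adjusted p = 0.032), the class II activator Ciita (log2 fold 1.76, SE 0.42, adjusted p = 0.046) and H2-Ab1 (log2 fold 1.89, SE 0.46, adjusted p = 0.048). H2-Ab1 ranged from 108 to 637 CPM, median 129, against 44.1 to 87.5 with a median of 61.4, with the highest value in D-3 IR 10, the library highest in B cell markers as well. The count of MHC class II genes called was 2 with the irradiation group as a covariate. This count was 0 without D+1 IR 20 and control 9, 7 without D+1 IR 18, without D-3 IR 14 and without D+1 IR 1, 4 without D-3 IR 10, 2 without control 9 and 1 without any of the other 7.

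Complement followed Cd68 in part, and of 17 genes 6 were higher (median log2 fold 0.90). These were the 3 chains of C1q, the anaphylatoxin receptors C3ar1 (log2 fold 2.78, SE 0.49, adjusted p = 0.012) and C5ar1 (log2 fold 3.36, SE 0.65, adjusted p = 0.019), and properdin, Cfp (log2 fold 2.77, SE 0.41, adjusted p = 0.0096), which leukocytes express. C1qb ranged from 115 to 659 CPM, median 146, against 29.4 to 70.3 with a median of 52.4 (log2 fold 2.22, SE 0.46, adjusted p = 0.024). Complement genes that fibroblasts, adipocytes or liver express did not pass, among them C3 (0.90), C1s1 (0.38) and Cfd (0.41). The count was 5 without D+1 IR 20 and control 9, and 2 without any of control 8, D+1 IR 19, D-3 IR 11, control 4 and control 6.

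Of 26 matrix proteases and inhibitors, 3 were higher and 19 had a log2 fold above 0 (median 0.69). Adam8, a membrane protease of leukocytes, ranged from 9.24 to 294 CPM, median 21.1, against 2.33 to 3.91 with a median of 2.7 (log2 fold 4.57, SE 0.87, adjusted p = 0.017), and Timp1, an inhibitor of metalloproteinases, from 84.9 to 733 CPM, median 296, against 15.8 to 80.4 with a median of 29.6 (log2 fold 3.03, SE 0.59, adjusted p = 0.019). Mmp13, a collagenase, was at 0.312 to 5.41 CPM, median 2.64, against 0.160 to 0.638 with a median of 0.259 with overlap (log2 fold 2.95, SE 0.66, adjusted p = 0.034). Mmp9, the gelatinase of neutrophils and macrophages, overlapped at 4.69 to 181 CPM, median 22.1, against 2.34 to 8.89 with a median of 5.21 (log2 fold 3.06, SE 0.85, adjusted p = 0.085), and its highest value, in control 9, was 181 CPM. Mmp12, the elastase of macrophages, was at 2.26 to 9.57 CPM, median 3.12, against 0.262 to 5.20 with a median of 1.48 (log2 fold 1.08, SE 0.62, adjusted p = 0.42). Mmp2 (0.51), Timp2 (-0.21) and Timp3 (-0.67) did not pass. The count was 1 without D+1 IR 20 and control 9, 7 without D+1 IR 1, 1 without control 8 and without D-3 IR 11, and 0 without D+1 IR 19 and without control 4.

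Of the matrix genes, 2 passed and none separated the sets, while 2.7% of all genes tested were called higher. Of 23 scar matrix genes, Cthrc1, a protein of activated fibroblasts, was higher (3.99 to 173 CPM, median 58.3, against 1.55 to 8.41 with a median of 4.49, log2 fold 3.85, SE 0.75, adjusted p = 0.019), and of 15 elastic fiber genes Fbln2 (131 to 512 CPM, median 353, against 115 to 168 with a median of 158, log2 fold 1.17, SE 0.26, adjusted p = 0.035). The medians were 0.64 (0.39 without control 9 and 0.81 without D-3 IR 10) and 0.14 (0.00 without control 9 and 0.42 without control 6). Each of these 2 calls was lost when D+1 IR 20 and control 9 were left out, and with the irradiation group as a covariate. Cthrc1 did not pass without control 8, D+1 IR 19 or control 4. Fbln2 did not pass without any single library other than D-3 IR 10, D-3 IR 14 and D+1 IR 1. Col1a1 overlapped at 2705 to 17327 CPM, median 7777, against 1959.6 to 7214 with a median of 4665 (log2 fold 0.96, SE 0.47, adjusted p = 0.34), and Tgfb1 at 69.5 to 171 CPM, median 114, against 49.7 to 85.0 with a median of 55.5 (log2 fold 0.88, SE 0.26, adjusted p = 0.1). Fbn1 (0.55), Lama5 (-0.46) and Tgfbr1 (-0.36) did not pass.

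None of the 25 contractile smooth muscle genes was called, and 24 had a log2 fold below 0 (median -0.54, or -0.74 without D-3 IR 10 and -0.22 without control 6). Over all genes tested, 43.1% had a log2 fold above 0 and only 0.0307% were called lower. Myh11, the smooth muscle myosin heavy chain, was at 184 to 2344 CPM, median 1658, against 1322 to 5178 with a median of 2490.0 (log2 fold -1.03, SE 0.55, adjusted p = 0.39). Acta2 was at 1579 to 10154 CPM, median 7723, against 3208 to 18228 with a median of 7543 (log2 fold -0.58, SE 0.60, adjusted p = 0.66), Tpm2 had a log2 fold of -0.27 and Prkg1, the kinase downstream of cyclic GMP, of -1.26 (SE 0.44) with an adjusted p of 0.18. The levels overlapped widely, and the list's summed median was 19272 CPM in the Cd68-high and 19256 CPM in the Cd68-low libraries. Acta2 was low in 2 Cd68-high libraries, at 1579 CPM in D+1 IR 20 and 1637 in D+1 IR 1. The lowest value of all 19 libraries, 722 CPM, was in the middle library D+1 IR 3. No gene of the adventitial fibroblast (14 tested, median 0.44) or endothelial (14, median 0.02, or -0.13 without control 6 and 0.27 without D+1 IR 2) lists was called.

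The 5 genes lower in the Cd68-high libraries were Ccser2, Grb14, Gucy1a1, Tmem246 and the predicted gene Gm830, and their log2 folds ran from -2.63 to -0.62. Gucy1a1, a subunit of the guanylate cyclase that nitric oxide activates in smooth muscle, ranged from 15.4 to 56.5 CPM, median 42.2, against 74.3 to 177 with a median of 96.2 (log2 fold -1.41, SE 0.32, adjusted p = 0.037). Its lowest value was in D+1 IR 20 and its highest in control 8. Grb14, an adaptor that restrains insulin signaling, ranged from 17.3 to 35.0 CPM, median 29.8, against 38.6 to 71.4 with a median of 50.5 (log2 fold -0.88, SE 0.20, adjusted p = 0.033), and Ccser2 from 53.7 to 90.5 CPM, median 74.4, against 95.2 to 128 with a median of 112 (log2 fold -0.62, SE 0.14, adjusted p = 0.033). These 3 did not overlap, whereas Tmem246 did by less than 1 CPM (18.7 to 33.4 CPM, median 24.9, against 32.8 to 47.5 with a median of 41.2). Without D+1 IR 20 and control 9 their log2 folds were -0.55 for Ccser2, -0.78 for Grb14, -1.14 for Gucy1a1 and -0.60 for Tmem246, and none passed. Next by p, and not called, were Laptm4b, Aktip, Ube2h, Ecm2, Ankmy2 and Ankrd46, with log2 folds of -1.12 for the matrix protein Ecm2 to -0.50 for the lysosomal membrane protein Laptm4b.

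Some markers of other blood cells were higher as well. Of 11 neutrophil genes tested, all had a log2 fold above 0 (median 4.15), and Clec4d (log2 fold 5.85, SE 1.2, adjusted p = 0.024), Csf3r (log2 fold 4.15, SE 0.90, adjusted p = 0.03) and Cxcr2 (log2 fold 6.34, SE 1.45, adjusted p = 0.038) were called. Without control 9 the median was 2.15, and the log2 fold of Cxcr2 was 3.93 and did not pass. The summed list, which includes 3 defining genes below the filter on low counts (Ly6g, Mpo and Elane), came to 24.7 to 1333 CPM in the Cd68-high libraries and 2.90 to 26.2 CPM in the Cd68-low libraries, highest in control 9. No neutrophil gene was called without D+1 IR 20 and control 9 (median 1.84), and none without any of control 8, D+1 IR 19, D-3 IR 11 and control 4, while 7 were without D+1 IR 1 and 1 without any of D+1 IR 20, D+1 IR 2 and control 6. With the irradiation group as a covariate, 1 neutrophil gene was called. The part of neutrophils in the values of genes that phagocytes share was not tested.

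Of 15 T cell genes 1 was called, Il7r, against 2.7% of all genes tested called higher. T cell genes (median 2.71) and B cell and plasma cell genes (0 of 11 called, median 3.17) had their highest sums in D-3 IR 10. Summed, they came to 420.5 and 1270.1 CPM in D-3 IR 10 and at most 20.2 and 56.5 CPM in the Cd68-low libraries. The next highest sums, 234 and 951 CPM, were in D+1 IR 3, a middle library. Without D-3 IR 10 the medians were 0.86 and 0.78. The Il7r call was lost without any single library other than D-3 IR 14 and D+1 IR 1, and without the latter 2 T cell genes passed. Of the dendritic cell list, Irf8, which monocytes and B cells also use, was called (log2 fold 2.64, SE 0.44, adjusted p = 0.01), 1 of 12, and of 5 NK cell genes tested none. Without D+1 IR 1, 4 dendritic cell genes passed, and without D+1 IR 18 and without D-3 IR 14, 2. Platelet genes came to 8.2 to 274 CPM in the Cd68-high libraries and 3.99 to 11.6 CPM in the Cd68-low libraries, with Itga2b called (log2 fold 2.97, SE 0.71, adjusted p = 0.047) and highest in control 9, and mast cell genes to 53.5 to 141 CPM in the Cd68-high libraries and 43.7 to 207 CPM in the Cd68-low libraries, with none of 8 called. The Itga2b call was lost without any single library other than D+1 IR 18, D-3 IR 14 and D+1 IR 1, and 2 platelet genes passed without the last of these. No T cell or platelet gene passed with the irradiation group as a covariate.

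**Figure D5:**
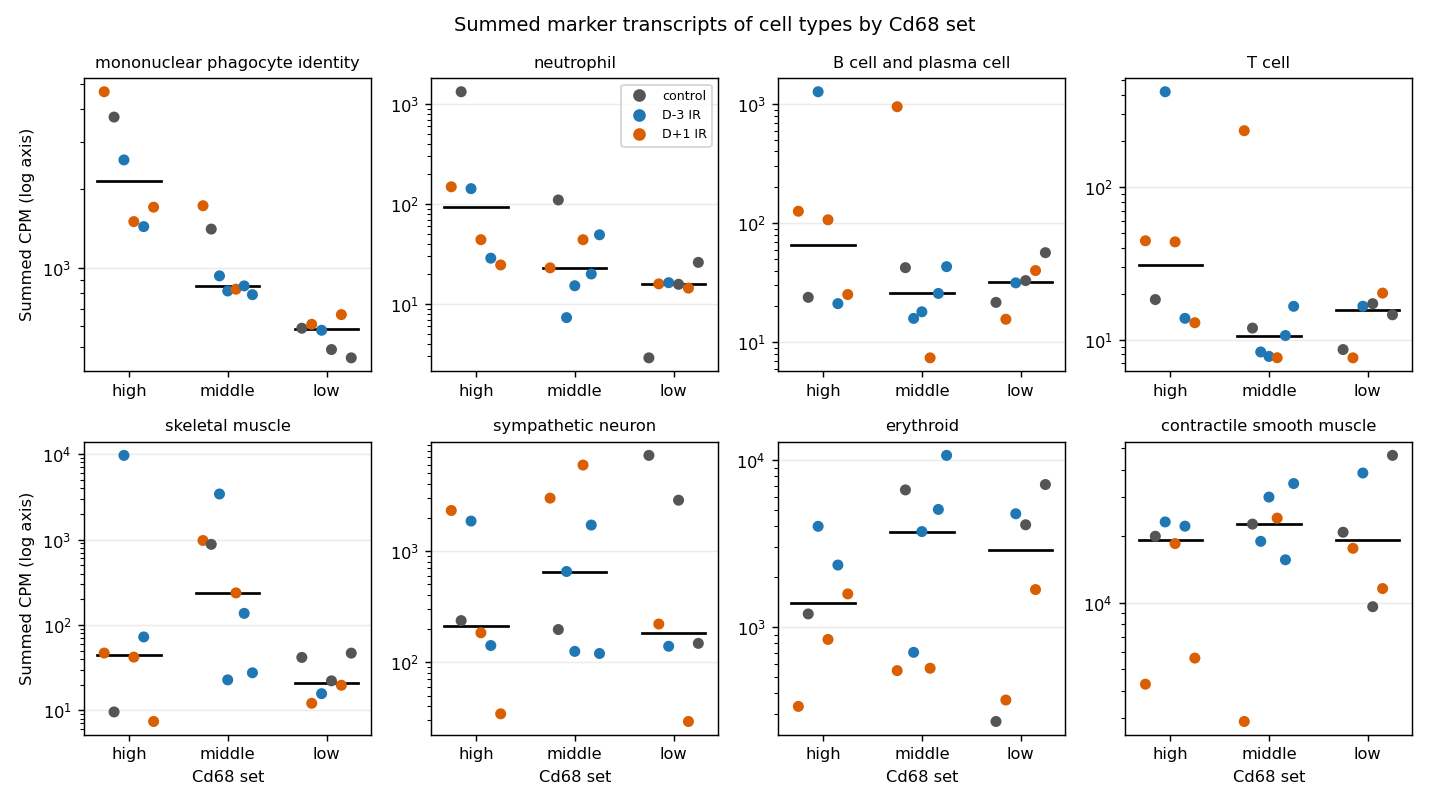
Summed CPM of the measured genes of 8 cell type lists (log axes) in the Cd68-high, middle and Cd68-low libraries, 1 point a library in order of Cd68 within its set, coloured by irradiation group, with a bar at each set's median. The sum of the mononuclear phagocyte list separates the high from the low set. Control 9 leads the neutrophil sum and D-3 IR 10 the B cell, T cell and skeletal muscle sums. The middle library D+1 IR 3 comes next in B and T cells, and the smooth muscle sums overlap.

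Markers of tissue outside the wall varied between libraries, and none was called. Skeletal muscle genes had the highest median log2 fold of any list, 5.48, but none of 12 was called, the sets overlapped, and without D-3 IR 10 the median was 0.36. Myh4, a fast myosin, was at 2343 CPM in D-3 IR 10 and at no more than 8.53 in the other Cd68-high libraries. Sympathetic neuron genes summed to 7265 CPM in control 8, a Cd68-low library, and to 2317 in D+1 IR 20 (0 of 14 called). Their median was -1.2, but 0.16 without control 8 and 2.79 with the irradiation group as a covariate, so that its sign was not stable. Erythroid genes overlapped between the sets (0 of 10 called, median -0.78, or -1.22 without D-3 IR 10 and -0.32 without control 6). White adipocyte genes did too (0 of 13, median -0.32, or -0.71 without D+1 IR 1 and 0.06 without D+1 IR 2), as did brown adipocyte genes (0 of 9, median -0.58, or -1.10 without D+1 IR 1 and -0.28 without D+1 IR 2). Over the 7 middle libraries, 11 of 13 white adipocyte genes had a rho with Cd68 above 0 (median 0.43). All 9 brown adipocyte genes did there as well (median 0.57). The 2 adrenal cortex genes tested (0.50), the 4 mesothelial genes (0.32, or 0.07 without D+1 IR 20 and 0.66 without control 8) and the 10 Schwann cell genes (0.26, or -0.89 without D-3 IR 10) had no call.

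Among general programs, cell division genes all lay above 0 (20 of 20, median log2 fold 0.98, or 0.78 without D+1 IR 2 and 1.62 without control 6), against 43.1% of all genes tested. Of these 20, 1 was called higher, against 2.7% of all genes tested. Mcm5, a subunit of the replicative helicase, was called at 10.9 to 29.2 CPM, median 20.9, against 3.32 to 13.2 with a median of 6.13 (log2 fold 1.46, SE 0.35, adjusted p = 0.048). The sum of cell division genes overlapped, at 214 to 568 CPM in the Cd68-high libraries and 86.8 to 453 CPM in the Cd68-low libraries. All 17 interferon response genes lay above 0 too (median 1.5, or 0.95 without D+1 IR 20), with Zbp1 (log2 fold 2.65, SE 0.56, adjusted p = 0.028) and Oas1a (log2 fold 2.52, SE 0.57, adjusted p = 0.037) called. Their sum overlapped, at 372 to 2352 CPM in the Cd68-high libraries and 358 to 452 CPM in the Cd68-low libraries, highest in D+1 IR 20. Neither list held a call when D+1 IR 20 and control 9 were left out, nor with the irradiation group as a covariate. Without D+1 IR 18, 9 interferon genes passed, without control 9 there was 1, and without any Cd68-low library none. The Mcm5 call was lost without any single library other than D+1 IR 1 and control 6.

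None of 12 p53 target genes was called (median 0.21, or 0.12 without control 4 and 0.34 without D+1 IR 2), with Cdkn1a, the cell cycle inhibitor p21, at 82.1 to 211 CPM, median 167, against 54.1 to 137 with a median of 96.5 (log2 fold 0.62, SE 0.28, adjusted p = 0.3). None of 12 immediate early genes was called either (median -0.08, or -0.51 without D+1 IR 18 and 0.03 without D+1 IR 20). Whereas 43.1% of all genes tested lay above 0, the 16 nuclear genes of oxidative phosphorylation all lay below it (none called, median -0.45, or -0.77 without D+1 IR 1 and -0.15 without D+1 IR 2). Their sum overlapped at 3608 to 15594 CPM in the Cd68-high libraries and 2624 to 20314 CPM in the Cd68-low libraries. Over the 7 middle libraries the direction was the other one, with a rho with Cd68 above 0 for all 16 (median 0.66).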

How the data were processed

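Poly(A) RNA of abdominal aortas of 19 AngII-infused Apoe-/- mice, 1 library a mouse, had been made into libraries with a stranded mRNA kit and sequenced. The authors aligned reads to GRCm38 with STAR 2.7.9a, after FastQC, and deposited raw gene counts, which hold uniquely mapped reads only, so genes with near-identical copies are uncertain. Unstranded counts were used here. The 2 strand columns held equal shares (49.9% to 50.1% on the second strand), so overlapping genes on opposite strands cannot be told apart. Libraries held 25839001 to 97083681 counts in genes (median 39641963), and depth limits the scarce genes most. Symbols came from GENCODE M21 and matched 52133 of 55414 gene IDs. No 2 of the 19 libraries agreed within sampling noise (chi-square test of their counts).

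Groups followed the labels. Libraries were ranked by Cd68 counts over the total in genes. The ranking, the gene lists and the genes named were chosen with earlier results of these data known. The 6 highest and 6 lowest were compared with edgeR 4.0.16 in R 4.3.3 (filterByExpr, TMM factors, no intercept, quasi-likelihood F-test, Benjamini-Hochberg adjustment over all genes tested, threshold 0.05), as in the design of the study, and Cd68 was left out of the counts of calls. The slope on log2 Cd68 CPM was fitted the same way over the 7 middle libraries. Correlations of Adgre1 and Csf1r with Cd68 used log2 CPM and two-sided permutation tests. Spearman's rho of all genes with Cd68 used log2(CPM + 0.25) and was not tested. The steps were tested on simulated data. Alternatives included RLE factors, other filters, limma 3.58.1 voom, DESeq2 1.42.0, the irradiation group as a covariate, other orderings and set sizes, and leaving out libraries. The genes named were Adgre1, Csf1r, the 15 higher and 10 lower genes of smallest p with a symbol of no predicted gene or pseudogene, up to 4 genes of smallest p per list, the genes the study measured by RT-qPCR and the 10 of highest Spearman's rho with Cd68. Further genes of a list were named as examples after their values were seen, Gm830 among them. Values of some list members are not reported here. Promoters came from the RefSeq table for GRCm38.p6.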

Additional observations from a re-analysis of the deposited data

Results flagged for a closer look

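For the 57 genes named by rule other than Cd68, each set of 6 libraries was searched for a library far from the other 5, by Dixon's ratio of the gap to the nearest library over the range of the set on the log2 scale. Among independent normal values, chance flags about 1 in 20 groups. The sets were chosen by Cd68 and some of the genes for following it, so that rate need not hold here. In all, 5 of 114 exceeded the 95% critical value. Ecm2 in D+1 IR 20, at 18.5 CPM, lay below the other Cd68-high libraries (ratio 0.657). Ankrd46 in control 8, at 93.6 CPM, lay above the other Cd68-low libraries (ratio 0.682). Within the Cd68-high set, C1qb in D+1 IR 20 at 659 CPM (ratio 0.785), Ccl2 in control 9 at 311 CPM (ratio 0.673) and Mmp12 in D+1 IR 1 at 9.57 CPM (ratio 0.671) lay above the others.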

How the results depend on the processing

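No paired analysis was possible because the numbers in the library names differ in all 3 groups and every aorta came from another mouse. Each of the 440 higher genes that was tested kept a positive log2 fold in all alternatives other than the ordering by Adgre1. In that ordering 435 of 440 did. The 440 were chosen for positive folds, and all alternatives drew on the same 19 libraries, so the kept sign supports nothing further. The number of genes called depended on the libraries. Higher genes numbered 128 to 585 and lower genes 0 to 59 with 1 library left out. Without both D+1 IR 20 and control 9, chosen after seeing the data, 147 were higher and 0 lower by edgeR, with 1168 and 261 at an unadjusted p under 0.05. The 4 highest against the 4 lowest libraries gave 110 and 0, with 1469 and 742 unadjusted, and the ordering by Adgre1 gave 0 and 0, with 966 and 396 unadjusted. Ordering by Csf1r gave 204 and 2, DESeq2 882 and 202, the middle libraries fitted as a set of their own 662 and 54, the slope over 19 libraries 1214 and 598, and the slope with irradiation group 1298 and 615. Lower genes alone moved by over 1.5 times with RLE factors (9), library totals only (1), no filter on low counts (2), limma voom (24), the irradiation group as a covariate (1), D+1 IR 1, 2 and 3 left out (40) and 9 against 9 libraries (86). The slope within the middle libraries gave no call in any setting run. The middle r of Csf1r without D+1 IR 3, the only one of D+1 IR 1, 2 and 3 there, was 0.80 and no longer passed.

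A few log2 folds of genes not called changed sign. These were Retnla (0.0137) and Timp2 (0.0502) in the ordering by Adgre1, Timp2 (0.0148), Tpm2 (0.0940), Lama5 (0.0997) and Tgfbr1 (0.0348) by limma voom, Tpm2 with 1 library left out (-0.61 to 0.0355, above 0 without control 6), and Il4 with the irradiation group as a covariate (0.108), in the slope with irradiation group (0.0358) and in the ordering by Csf1r (0.0379). The cause of these changes was not tested.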
